A study of Mus musculus with 12 samples.

Results

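The Intermediate population is 1 of 4 cell populations sorted from the mouse aorta and its perivascular fat, and it gave 3 of the 12 libraries of the series. It is described here against the Progenitor, SMC1 and SMC2 populations, with 3 libraries each, so that 3 Intermediate libraries were set beside 9 others and each of the other populations carried the same weight. All 12 libraries came from wild-type male CD-1 mice aged 13 weeks, an outbred strain, with no treatment or allele that separates the groups, and SMC stands for smooth muscle cell. Aorta and fat were digested together, the populations were isolated by flow sorting, and poly(A) RNA was amplified with a kit for very low input. No source used here gives the antibodies or gates, and some of the genes below may have served to sort the cells. The labels do not say whether a replicate number marks an animal or a pool, so the p-values cover the variation among libraries, part of which can be technical.

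Perivascular adipose tissue surrounds the aorta and lies against its outer coat, the adventitia, where fibroblasts and their progenitors sit in a mesh of collagen and elastic fibres. Such stromal cells carry the PDGF receptor Pdgfra and the sialomucin Cd34, while smooth muscle cells of the vessel wall make contractile proteins such as Acta2 and Myh11. Secreted signals of the Hedgehog, Wnt and BMP families pattern these tissues, and small leucine-rich proteoglycans set the width of their collagen fibrils.

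Depth ran from 13258631 to 22647175 counts per library, and 19016 of 33352 genes had enough counts to be tested. Levels are CPM, counts relative to the library total, scaled by TMM factors, which are not divided by gene length and are compared between populations, not between genes. The first question was whether the label of a population between the others holds for the genes that define its neighbours. Acta2, smooth muscle actin, stood at 252 ± 43.2 CPM in Intermediate and 203 ± 95.5 CPM in Progenitor, against 19480 ± 2247 CPM in SMC1 and 14510 ± 2391 CPM in SMC2 (SD, n = 3 each). Myh11, a myosin heavy chain of smooth muscle, was measured at 90.3 ± 21.2, 79.3 ± 42.6, 8457 ± 1071 and 6341 ± 1752 CPM in the same order. Pdgfra stood at 819 ± 64.2 CPM in Intermediate, 842 ± 276 CPM in Progenitor, 26.0 ± 1.95 CPM in SMC1 and 7.20 ± 1.27 CPM in SMC2. For these 3 genes the Intermediate libraries overlapped the Progenitor libraries and lay far from both smooth muscle populations, so they were not at a midpoint of the contractile change. Cd34 stood at 1487, 1143 and 1071 CPM in Intermediate, below the 1984, 1919 and 1905 CPM of Progenitor with no overlap, and at most 75.1 CPM in the smooth muscle libraries; its log2 difference to Progenitor, -0.65 ± 0.28, was not called (edgeR quasi-likelihood test, adjusted p = 0.112). In bulk samples, fewer cells of a type and less RNA per cell cannot be told apart.

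The 4 marker genes given for the Intermediate population, Fmod, Angptl7, Hhip and Frzb, encode secreted or surface proteins of the matrix and of 2 signalling pathways. Their promoters, the 250 bases before the RefSeq start site in GRCm38.p6, are printed 5′ to 3′ on the gene's own strand because all 4 genes were given as markers of Intermediate; beyond that shared peak, the order of the other populations differs between them. Capitals mark CG dinucleotides. They lie at chr1:134037004-134037253 (plus strand, Fmod), chr4:148500463-148500712 (minus strand, Angptl7), chr8:80058009-80058258 (minus strand, Hhip) and chr2:80447397-80447646 (minus strand, Frzb). Most of the Frzb window lies inside the span of that gene in GENCODE M21, which starts further upstream than the RefSeq start.
Fmod: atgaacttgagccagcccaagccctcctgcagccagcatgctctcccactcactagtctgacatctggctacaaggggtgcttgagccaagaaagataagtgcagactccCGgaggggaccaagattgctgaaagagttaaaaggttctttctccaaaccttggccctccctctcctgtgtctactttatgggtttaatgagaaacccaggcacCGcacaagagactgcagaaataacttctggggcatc
Angptl7: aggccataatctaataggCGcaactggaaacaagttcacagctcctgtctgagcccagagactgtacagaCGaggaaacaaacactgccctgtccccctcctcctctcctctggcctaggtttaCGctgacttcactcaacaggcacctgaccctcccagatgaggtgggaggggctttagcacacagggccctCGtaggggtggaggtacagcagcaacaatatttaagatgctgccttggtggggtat
Hhip: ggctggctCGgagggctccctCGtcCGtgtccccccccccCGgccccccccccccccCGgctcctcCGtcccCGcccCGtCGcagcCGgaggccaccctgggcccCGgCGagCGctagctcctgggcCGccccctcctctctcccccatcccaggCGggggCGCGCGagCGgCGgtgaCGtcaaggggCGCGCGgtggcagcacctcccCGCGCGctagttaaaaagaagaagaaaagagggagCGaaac
Frzb: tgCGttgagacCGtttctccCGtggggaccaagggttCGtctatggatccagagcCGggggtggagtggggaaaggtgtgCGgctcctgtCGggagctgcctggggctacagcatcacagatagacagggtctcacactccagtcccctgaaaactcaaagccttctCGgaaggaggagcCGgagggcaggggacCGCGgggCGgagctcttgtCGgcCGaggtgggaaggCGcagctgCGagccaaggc
Their base composition is not shared: the Fmod and Angptl7 windows hold 2 and 4 CG dinucleotides, the Frzb window 16 and the Hhip window 28. The median was 14 over the 12614 promoters of tested genes that the table holds, and 6 over all 27025 promoters.

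Fmod, fibromodulin, is a small leucine-rich proteoglycan that binds collagen fibrils and is abundant in tendon. It stood at 2757, 1904 and 1810 CPM in Intermediate replicates 1 to 3, at 43.0, 102 and 98.3 CPM in Progenitor, at 26.4, 13.9 and 17.9 CPM in SMC1 and at 57.0, 59.9 and 37.6 CPM in SMC2. The lowest Intermediate library was far above the highest of the other 9, which was a Progenitor library. The log2 difference to the mean of the other 3 populations was 5.64 ± 0.23 (SE; edgeR quasi-likelihood test, Benjamini-Hochberg adjusted p = 2.51e-12), and the difference to the nearest population, Progenitor, was 4.73 ± 0.35.

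Angptl7, a secreted protein of the angiopoietin-like family, stood at 5103, 3728 and 3572 CPM in Intermediate, 246, 348 and 306 CPM in Progenitor, 32.8, 20.9 and 25.1 CPM in SMC1 and 5.89, 18.7 and 28.0 CPM in SMC2. Hhip, a membrane protein that binds Hedgehog ligands and is itself induced by the pathway, stood at 654, 559.8 and 550.5 CPM in Intermediate, 16.5, 38.5 and 37.6 CPM in Progenitor, 7.53, 5.92 and 4.98 CPM in SMC1 and 1.10, 2.47 and 2.58 CPM in SMC2. For both genes Progenitor was the nearest population, by log2 differences of 3.78 ± 0.41 and 4.25 ± 0.31, and the smooth muscle libraries were lowest. Against the mean of the other 3 the log2 differences were 6.32 ± 0.29 for Angptl7 and 6.34 ± 0.22 for Hhip (edgeR quasi-likelihood test, Benjamini-Hochberg adjusted p = 4.07e-11 and 3.53e-13).

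Frzb, a secreted frizzled-related protein that binds Wnt ligands, had another order of levels. It stood at 449, 283 and 316 CPM in Intermediate, 22.01, 25.9 and 26.7 CPM in Progenitor, 100.4, 92.0 and 158 CPM in SMC1 and 6.35, 20.2 and 15.5 CPM in SMC2. Intermediate was highest, with no overlap, but SMC1 came next and was the nearest population (log2 difference 1.58 ± 0.31). The difference to the mean of the other 3 was 3.35 ± 0.23 (edgeR quasi-likelihood test, Benjamini-Hochberg adjusted p = 4.98e-09).

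Over all genes, 3952 of 19016 were higher in Intermediate than the mean of the other 3 populations (20.8%) and 3018 were lower (15.9%), 36.7% in all, by edgeR's quasi-likelihood test at an adjusted p of 0.05. A gene can pass that test while lying between the others, so a stricter reading was used. All 3 Intermediate libraries lay above all 9 others in 1325 genes (6.97%) and below all 9 in 758 genes (3.99%). Of these, 750 genes (3.94%) were also called higher than each of the 3 other populations in its own comparison, and 380 (2.0%) were called lower than each. The split between both directions depends on the scaling of the libraries: with upper-quartile factors 535 genes were higher than each and 565 lower, with all log2 differences shifted by a median of -0.073. With a library left out, the count below all others rose in every run. It was then 844 to 1150, highest without Intermediate replicate 1. The count above all others rose to 1551 to 1886 without an Intermediate or Progenitor library. It fell to 1130 to 1219 without an SMC1 or SMC2 library. No overlap is easier to meet with fewer libraries, but these runs also changed the scaling and the genes tested. The cause was not tested. Leaving out Intermediate replicate 2 or 3 reduced the genes lower than each to 222 or 239.

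The same reading gave 813 genes higher and 782 lower than each other population for Progenitor, 1165 and 962 for SMC1, and 1378 and 1223 for SMC2. By this count Intermediate had the fewest higher genes under TMM, median-of-ratios and upper-quartile scaling, but by libraries alone Progenitor had fewer genes above all 9 others under TMM (1267 against 1325). Intermediate had the fewest lower genes under TMM and median-of-ratios scaling, while with upper-quartile factors Progenitor had fewer (518). Between Progenitor and SMC1, 5805 genes differed at least 2-fold and passed the test. The Intermediate mean lay between them in 3869 of them (66.6%), above both in 1161 (20%) and below both in 775 (13.4%). By their means, most genes of that axis were therefore bracketed by Progenitor and SMC1, and the remaining share was outside them. These positions compare means without a test of Intermediate. A mean close to that of either population counts as between, as for Acta2 and Myh11, so 66.6% is not a share at middle levels.

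Of the 750 genes higher than each, Progenitor was the nearest population for 521, SMC1 for 172 and SMC2 for 57. The difference to the nearest population was at least 2-fold in 344, at least 4-fold in 99 and at least 8-fold in 29, with a median log2 of 0.95. For the 380 genes lower than each, the nearest population was Progenitor in 199, SMC1 in 105 and SMC2 in 76, and 134, 37 and 11 reached those folds. At the edge of the reading by libraries, Scpep1 just passed, with 275.8 CPM in its lowest Intermediate library against 275.6 CPM in the highest other, and Invs just failed, with 23.92 CPM on both sides. Uqcrfs1 just passed below, with 51.45 CPM in its highest Intermediate library against 51.48 CPM in the lowest other.

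**Figure D1:**
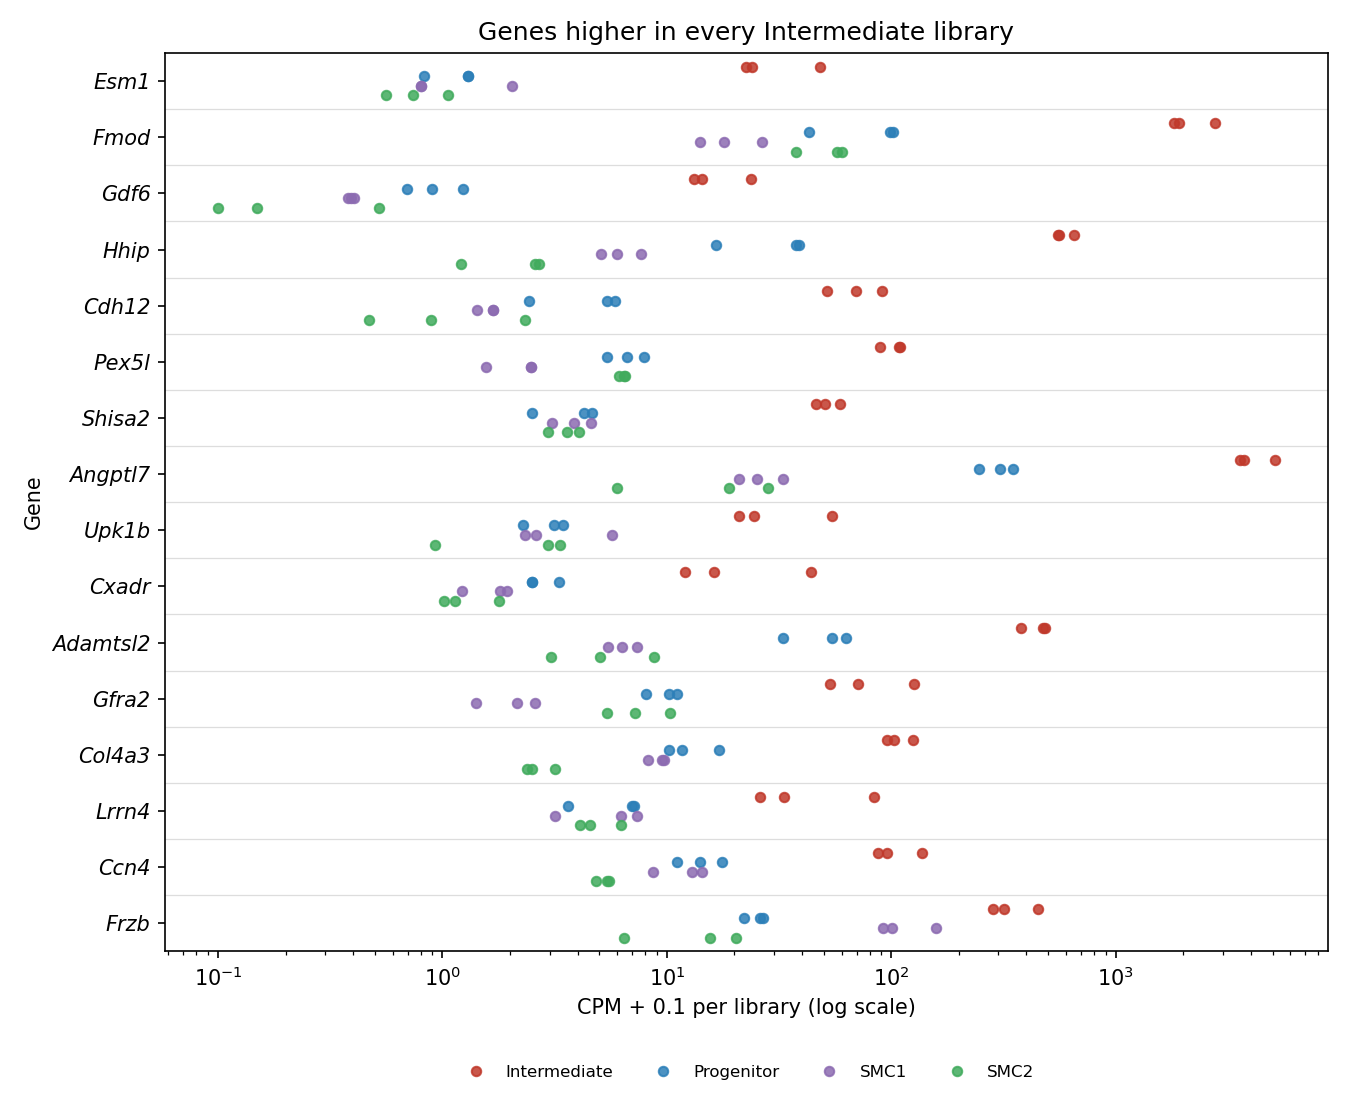
CPM + 0.1 in each of the 12 libraries (horizontal log axis) for the genes with the largest difference to their nearest population among those higher in Intermediate and with a mean of at least 16 CPM there, plus Frzb; colours mark the populations and each point is a library. The 3 Intermediate points lie to the right of all 9 others in every row, from Esm1 (nearest log2 difference 4.81) to Frzb (1.58).

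Esm1, endocan, is a secreted proteoglycan best known from endothelial cells, and it had the largest difference to its nearest population among the genes with at least 16 CPM in Intermediate. It stood at 48.0, 22.4 and 23.9 CPM in Intermediate, 0.729, 1.20 and 1.20 CPM in Progenitor, 1.93, 0.699 and 0.703 CPM in SMC1 and 0.460, 0.642 and 0.960 CPM in SMC2 (nearest log2 difference 4.81 ± 0.40, to SMC1). Of 16 endothelial marker genes, 0 were higher in Intermediate than the mean of the others by edgeR or DESeq2 at an adjusted p of 0.05, and 2 were at an unadjusted p of 0.05; without the low-count filter 2 were called, and with the replicate block or without Intermediate 1, Progenitor 3 or SMC1 1 there was 1. Their summed level was 152.5 to 219 CPM in Intermediate against 209 to 642 CPM in the other 9 libraries. Cdh5, the endothelial cadherin, stood at 1.89 CPM and Cldn5, an endothelial tight junction protein, at 2.39 CPM in Intermediate. The 4 endothelial markers called lower were Esam, Tek, Emcn and Tie1; without Intermediate replicate 1 the adjusted p became 0.0568 for Emcn and 0.191 for Tie1 in edgeR's quasi-likelihood test, and 2 were left.

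Gdf6, a ligand of the BMP family with a part in joint and tendon formation, was near absent elsewhere. It stood at 23.6, 14.2 and 13.1 CPM in Intermediate, 0.593, 0.800 and 1.14 CPM in Progenitor, 0.305, 0.280 and 0.293 CPM in SMC1 and 0, 0.0494 and 0.420 CPM in SMC2. Cdh12, a classical cadherin studied mainly in neurons, stood at 51.8, 69.8 and 90.3 CPM in Intermediate, 2.32, 5.33 and 5.75 CPM in Progenitor, 1.32, 1.58 and 1.58 CPM in SMC1 and 0.368, 0.790 and 2.22 CPM in SMC2. In both genes every other library was at or below 5.75 CPM.

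Pex5l, a relative of the peroxisomal import receptor that regulates HCN channels in neurons, stood at 109, 88.9 and 108 CPM in Intermediate and between 1.46 and 7.80 CPM in the other 9 libraries. Its levels were also the most like those of Fmod: the Pearson correlation of log2 CPM over the 12 libraries was 0.987. The next genes by that measure, among those with at least 16 CPM in Intermediate, were Mettl7a1 (0.970), Bhlhe40 (0.966), Gfra2 (0.965) and Klf5 (0.963). These 12 points fall into 4 populations and share depth and preparation, so the correlations mainly describe the step between Intermediate and the rest. Shisa2, an endoplasmic reticulum protein that holds back FGF and Wnt receptors, stood at 59.0, 46.1 and 50.3 CPM in Intermediate and 2.42 to 4.53 CPM in the other 9 libraries, nearly level across the 3 other populations.

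The other genes that the naming rule placed among the 15 furthest from their nearest population were matrix, adhesion and receptor genes. Adamtsl2, a secreted matrix protein that binds fibrillin, stood at 444 ± 58.8 CPM in Intermediate and 49.96 ± 15.4 CPM in Progenitor (nearest log2 difference 3.15 ± 0.30). Col4a3, a basement membrane collagen chain, stood at 108 ± 15.4 CPM against 12.9 ± 3.64 CPM in Progenitor (3.07 ± 0.20), and Ccn4, a matricellular protein induced by Wnt signals, at 106 ± 26.5 CPM against 14.1 ± 3.23 CPM (2.92 ± 0.22). Gfra2, a receptor for neurturin, stood at 126, 70.7 and 53.0 CPM in Intermediate and 9.69 ± 1.58 CPM in Progenitor (3.11 ± 0.31). In these 4 genes both smooth muscle populations were lower still than Progenitor in mean CPM.

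Upk1b, Lrrn4 and Cxadr completed the 15, and they behaved differently within the group. Upk1b, a uroplakin, stood at 24.2, 20.9 and 54.2 CPM in Intermediate and at most 5.60 CPM elsewhere. Lrrn4, a leucine-rich repeat membrane protein, stood at 33.1, 25.9 and 83.9 CPM and at most 7.28 CPM elsewhere. Cxadr, a junctional adhesion protein that also serves as a virus receptor, stood at 16.2, 11.99 and 43.8 CPM and at most 3.20 CPM elsewhere. In all 3 genes Intermediate replicate 3 was more than double the other Intermediate libraries in level, and the lowest differences to the nearest population on leaving out 1 library were 2.71, 2.38 and 2.42 log2.

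Upk1b and Lrrn4 belong to a list of 16 mesothelial markers, genes of the cell layer that lines body cavities. Of these, 14 were higher than the mean of the other 3 populations and 11 were higher than each, with a median log2 difference of 2.53 against 0.015 over all tested genes. Msln, mesothelin, stood at 43.4 CPM in Intermediate against 7.39, 9.05 and 5.75 CPM in Progenitor, SMC1 and SMC2, and Upk3b at 80 CPM against 13.4, 14.7 and 8.36 CPM. Wt1, a mesothelial and stromal transcription factor, went the other way against Progenitor (5.70 CPM against 17.9 CPM), and Cdh1 stood at 0.524 CPM. The summed level of the 16 genes was 309.5, 292.9 and 632 CPM in Intermediate replicates 1 to 3, 117 to 131 CPM in Progenitor, 68.1 to 124 CPM in SMC1 and 52.4 to 90.2 CPM in SMC2. The markers were thus highest in Intermediate as a sum, and their part in the other differences was not tested. Of the 680 genes higher than each with a mean of at least 5 CPM in Intermediate, replicate 3 exceeded both other Intermediate libraries 1.5-fold in 19, replicate 1 in 24 and replicate 2 in 1. Fmod, Angptl7, Hhip and Frzb were each highest in replicate 1, and whether their levels go with the mesothelial sum was not tested.

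**Figure D2:**
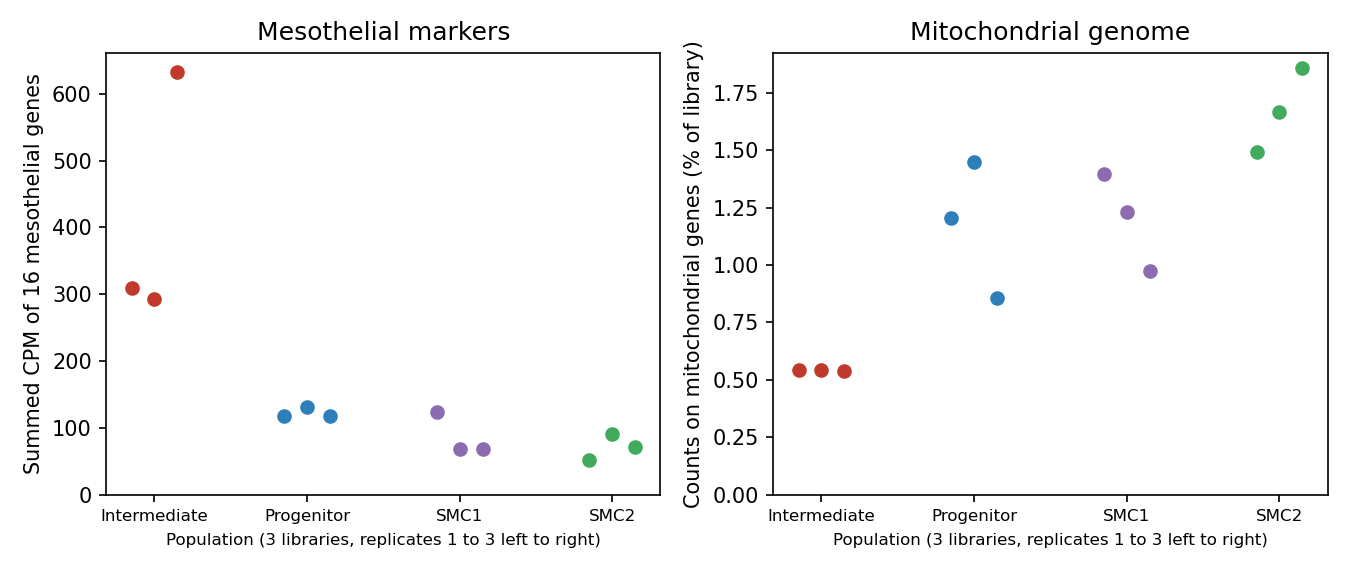
Left, the summed CPM of the 16 mesothelial markers, and right, the percent of counts on genes of the mitochondrial genome, with a point for each library of the 4 populations (replicates 1 to 3 from left to right). Intermediate replicate 3 reaches 632 CPM on the left, and all 3 Intermediate libraries lie between 0.540% and 0.545% on the right, below the other 9.

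Hedgehog genes were the signalling list with the largest share higher in Intermediate. Of 22 tested members, 15 were higher than the mean of the other 3 populations, 3 were lower, and 7 were higher than each, with a median log2 difference of 0.98. For this and later lists, the shares over all genes tested were 20.8% higher, 15.9% lower, 3.94% higher than each and 2.0% lower than each. Among the Hedgehog genes higher than each, beside Hhip, were the receptor Ptch1, the co-receptor Boc, the transducer Smo, the effector Gli1 and the ciliary protein Evc2. Evc2 lost its call without Progenitor replicate 1 and without the filter on low counts. Boc stood at 575, 432 and 460.3 CPM in Intermediate and 138, 169 and 250.3 CPM in Progenitor, with means of 63.1 CPM in SMC1 and 21.6 CPM in SMC2. Gli1, which is both effector and target of the pathway, stood at 25.7 CPM in Intermediate against 8.54, 3.49 and 2.19 CPM in Progenitor, SMC1 and SMC2, and Ptch1 at 44.0 CPM against 13.0, 14.7 and 11.4 CPM. These genes were thus at their highest in Intermediate, while the ligand Dhh stood at 2.99 CPM there against 2.31 to 3.21 CPM in the others, and Ihh was lower than the mean of the others (0.315 CPM, against 8.84 CPM in SMC1). The list, like the others, was drawn up with earlier results of these data known.

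In a list of secreted Wnt regulators that also holds the membrane protein Apcdd1, 8 of 17 were higher than the mean of the others and 5 were lower. Sfrp2, Frzb and Apcdd1 were higher than each population. Sfrp2, a Wnt-binding antagonist, stood at 2759, 2059 and 1631 CPM in Intermediate, 185, 445 and 367 CPM in Progenitor, 183, 99.1 and 179.9 CPM in SMC1 and 9.53, 24.4 and 29.4 CPM in SMC2 (nearest log2 difference 2.69 ± 0.41). Sost, sclerostin, and Wif1 went the other way, with 2.67 and 2.47 CPM in Intermediate against 377 and 60.6 CPM in SMC1. Of 36 Wnt ligands, receptors and targets, 14 were higher and 5 lower than the mean, and 7 were higher than each. The 7 were the ligands Wnt5a and Wnt9a, the receptors Ror2, Fzd1, Fzd4 and Lrp6, and the feedback inhibitor Nkd2. The call of Nkd2 was lost in 10 of 17 alternatives, that of Fzd1 in 2 and that of Fzd4 in 3. Lrp6 also lost its call in 3, among them upper-quartile factors. Wnt5a, a ligand that signals through Ror2, stood at 234, 211 and 188 CPM in Intermediate and 80.8, 98.8 and 106 CPM in Progenitor, and Ror2 at 29.2 CPM against 15.8 CPM. The count of 7 was 4 without Intermediate replicate 2 or without Progenitor replicate 1, and the count of 5 lower was 3 without Intermediate replicate 1. Those 5 were 13.9% of the 36, near the 15.9% lower over all genes tested, and the 14 higher were 38.9%, against 20.8%.

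Of 33 BMP, GDF and activin genes, 12 were higher and 7 lower than the mean. These were 36.4% and 21.2% of the list, against 20.8% and 15.9% over all genes tested. Gdf6, Bmp4, Gdf1 and the antagonists Chrd and Chrdl1 were higher than each. Bmp4, a BMP ligand, stood at 392.3, 320.2 and 296 CPM in Intermediate, 64.1, 68.5 and 59.3 CPM in Progenitor and at most 9.42 CPM in the smooth muscle libraries. These 5 genes thus include both ligands and antagonists, and Gdf1 lost its call without Progenitor replicate 1. The ligand genes Bmp2, Bmp3, Bmp5, Bmp6 and Bmp7, with Inha and Inhba, went the other way and were lower than the mean. Of 12 angiopoietins, angiopoietin-like genes and their receptors, 6 were higher and 4 lower than the mean, and Angptl7 was the single member higher than each population. Angptl1, for comparison, stood at 41.6 CPM in Intermediate and 127 CPM in Progenitor.

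Of 22 elastic fibre genes, 19 were higher than the mean of the others, 0 were lower, and Fbln1, Fbln5, Ltbp2, Mfap4 and Lox were higher than each. Ltbp2, a latent TGF-beta binding protein of microfibrils, stood at 364, 329.8 and 363 CPM in Intermediate, 18.1, 27.3 and 40.4 CPM in Progenitor, 87.1, 59.5 and 88.0 CPM in SMC1 and 20.9, 21.1 and 21.4 CPM in SMC2. Fbln5 and Lox, which assemble and cross-link elastin, stood at 3159 and 864 CPM in Intermediate against 1544 and 324 CPM in SMC1 and 1177 and 344 CPM in Progenitor. Eln, elastin itself, was higher than the mean of the others but not at the top: it stood at 1767 CPM in Intermediate, 4651 CPM in SMC1, 239.8 CPM in Progenitor and 529 CPM in SMC2. Without Intermediate replicate 1, 3 elastic fibre genes were higher than each in place of 5.

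In a list of 21 fibrillar, beaded and other collagens, 15 were higher and 2 lower than the mean. Col1a1, Col1a2, Col8a1, Col8a2 and Col16a1 were higher than each, 3 genes when Intermediate replicate 1 was left out. The call of Col1a2 was lost in 10 of 17 alternatives. Col1a1, the main chain of type I collagen, stood at 6989 CPM in Intermediate against 2873, 797 and 92.1 CPM in Progenitor, SMC1 and SMC2. Col8a2, a short-chain collagen, stood at 62.5, 77.2 and 61.2 CPM in Intermediate and 16, 25.5 and 26.7 CPM in Progenitor, with the smooth muscle libraries at or below 2.19 CPM. Among 16 small leucine-rich proteoglycans 12 were higher than the mean and 1 was lower, yet Fmod and Podn were the 2 that were higher than each population. Decorin (Dcn) and lumican (Lum) stood at 27740 and 5466 CPM in Intermediate against 38280 and 6025 CPM in Progenitor, so the abundant members of that family were shared by both stromal populations while Fmod was not.

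Of 41 matrix proteases and inhibitors, 24 were higher and 6 lower than the mean. The share lower, 14.6%, was near the 15.9% over all genes tested, while 58.5% were higher, against 20.8%. Mmp3, stromelysin, stood at 1181 CPM in Intermediate against 337 CPM in Progenitor, and Adamts2, the procollagen N-proteinase, at 2812 CPM against 1050.0 CPM. Both were higher than each population, with Adamtsl2, Adamts7, Adamts17, Mmp16 and Reck, and Adamts14 was lower than each. Adamts7 lost its call with upper-quartile factors and without Intermediate 2, Progenitor 1 or Progenitor 2. Mmp16 lost its call without Intermediate 1, Intermediate 3 or SMC1 1. Of 24 cartilage and tendon genes, 10 were higher and 5 lower than the mean, with a median log2 difference of 0.13, close to that of all genes. The 6 higher than each were Matn3, Col11a1, Comp, Chil1, the tendon transcription factor Mkx and the tendon membrane protein Tnmd. Chil1 lost its call without Intermediate replicate 3 or Progenitor replicate 2. Other genes went the other way: the tendon transcription factor Scx, the cartilage proteoglycan Acan, Sox5 and Sox6 were lower than the mean. These 4 calls held in all 17 alternatives. Tnmd stood at 68.5, 62.1 and 52.4 CPM in Intermediate, 18.8, 20.5 and 13.1 CPM in Progenitor, 6.67, 6.11 and 4.92 CPM in SMC1 and 24.0, 18.7 and 18.3 CPM in SMC2. Matn3, a cartilage matrix protein, stood at 12.6, 10.1 and 12.4 CPM in Intermediate and at most 0.911 CPM elsewhere.

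Of 67 tested patterning transcription factors, 31 were higher and 15 lower than the mean of the others, and without Intermediate replicate 3 the count of lower genes was 8. Foxd1, Pax1 and the bone regulator Runx2 were higher than each population, and Tbx3 and Tbx20 lower, shares close to those over all genes. The call of Runx2 was lost without Intermediate replicate 1 or Progenitor replicate 1. Foxd1, a stromal forkhead factor, stood at 26.7, 25.7 and 15.8 CPM in Intermediate, 2.73, 6.20 and 2.59 CPM in Progenitor and at most 1.98 CPM in the smooth muscle libraries. Tbx3 stood at 2.05, 1.38 and 1.15 CPM in Intermediate, 3.56, 3.13 and 3.92 CPM in Progenitor, 4.73, 3.82 and 3.40 CPM in SMC1 and 164, 105 and 111 CPM in SMC2. With upper-quartile factors or DESeq2, 4 factors were lower than each in place of 2. Of 19 cadherins, Cdh12, Cdh4 and Cdh11, a cadherin of mesenchymal cells (323 ± 43.5 CPM against 103 ± 18.3 CPM in Progenitor), were higher than each and Cdh19 was lower; Cdh4 lost its call in 6 of 17 alternatives, among them each omission of an Intermediate library.

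**Figure D3:**
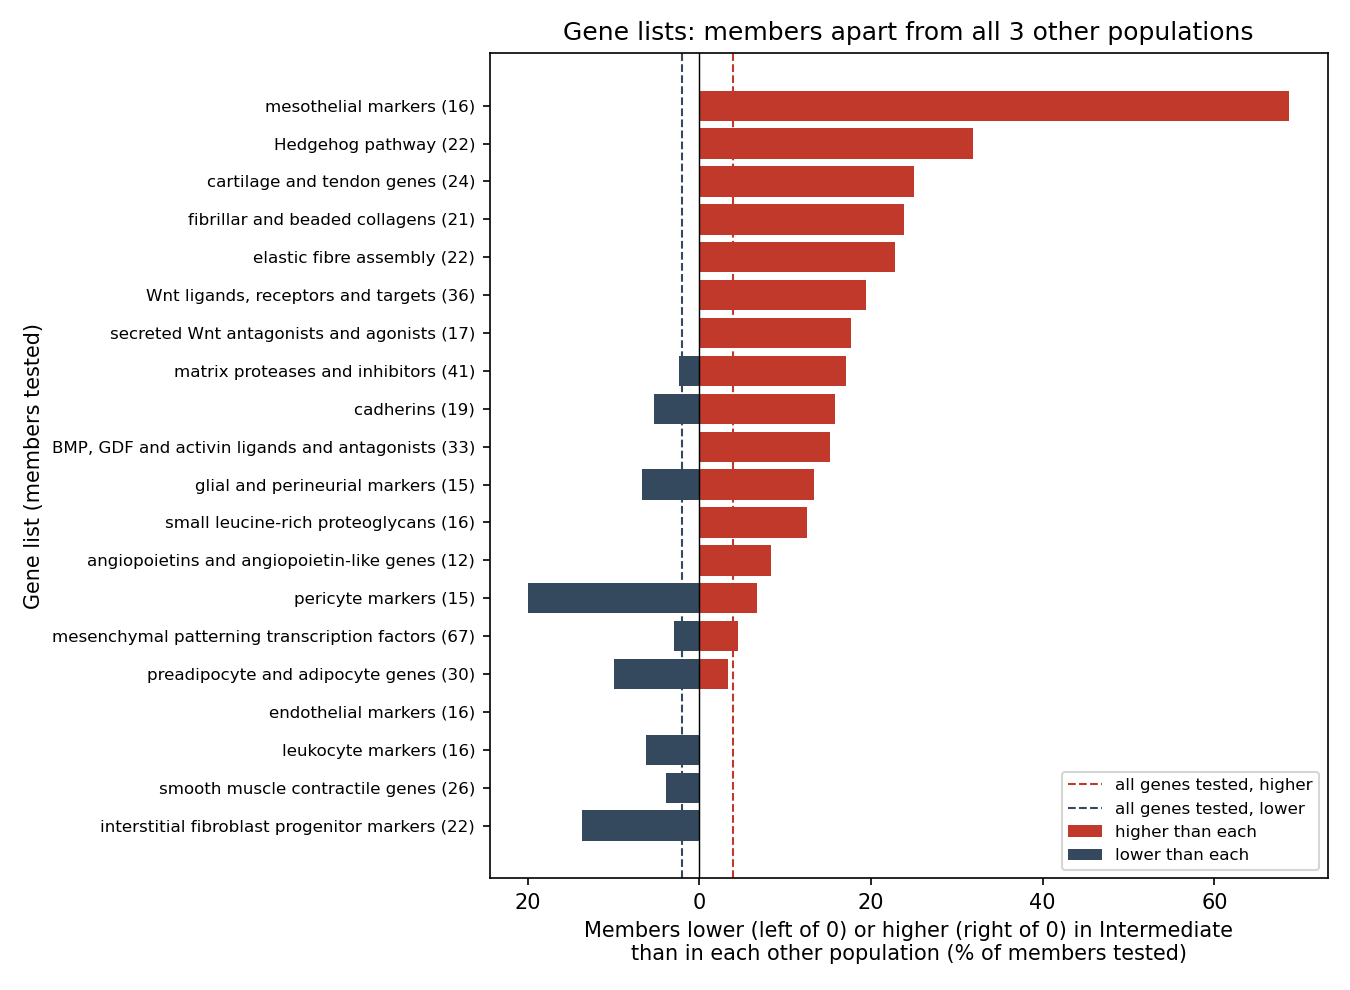
For each gene list, the percent of its tested members that were higher (bars to the right of 0) or lower (to the left) in Intermediate than in each of the 3 other populations, with the shares over all 19016 genes (3.94% and 2.0%) as lines. Mesothelial markers (11 of 16) and Hedgehog genes (7 of 22) reach furthest to the right.

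**Figure D4:**
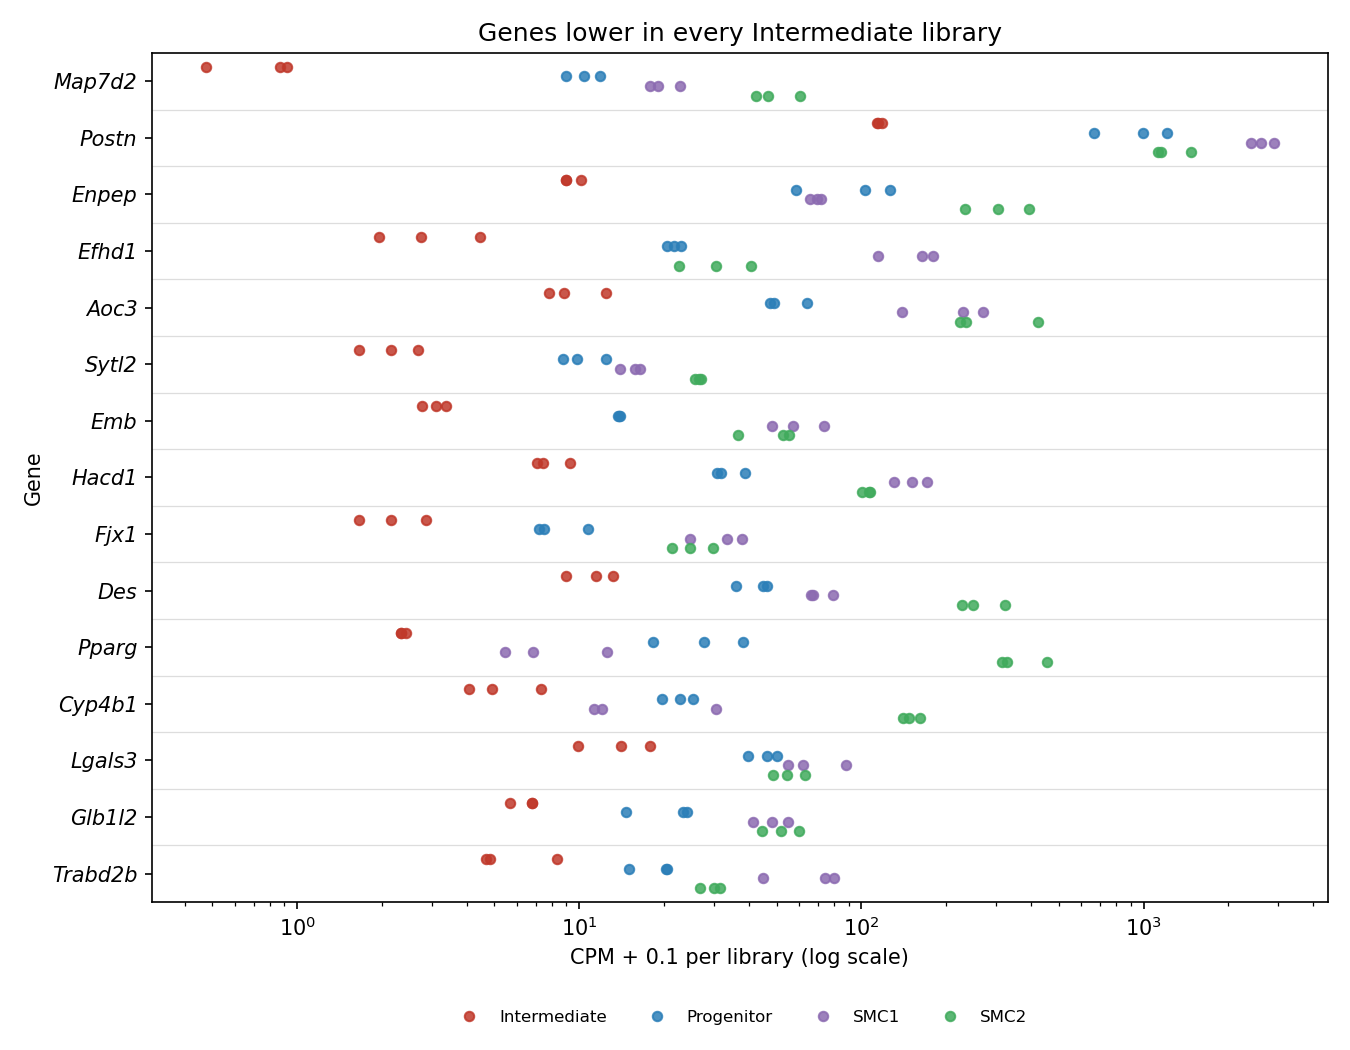
CPM + 0.1 in each of the 12 libraries (horizontal log axis) for the genes with the largest difference to their nearest population among those lower in Intermediate and with a mean of at least 8 CPM in the lowest other population; colours mark the populations and each point is a library. The 3 Intermediate points lie to the left of all 9 others in every row, from Map7d2 (nearest log2 difference -3.97) to Trabd2b (-1.65).

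Postn, periostin, a matricellular protein of fibroblasts and injured vessels, was the most abundant of the 15 named genes that were lower in Intermediate. It stood at 119, 115 and 114 CPM in Intermediate, 1207, 667 and 998 CPM in Progenitor, 2613, 2903 and 2399 CPM in SMC1 and 1126, 1471 and 1150 CPM in SMC2 (nearest log2 difference -3.05, to Progenitor). The lowest other library was thus several times higher than any Intermediate library, against the direction of most matrix genes above. Map7d2, a microtubule-associated protein, stood at 0.373, 0.816 and 0.766 CPM in Intermediate, 8.84 to 11.7 CPM in Progenitor, 17.7 to 22.6 CPM in SMC1 and 42.1 to 60.5 CPM in SMC2. Enpep, the aminopeptidase that cleaves angiotensin II, stood at 10.1, 8.85 and 8.88 CPM in Intermediate, 126, 58.3 and 103 CPM in Progenitor, 69.4, 65.8 and 71.9 CPM in SMC1 and 393, 306 and 233 CPM in SMC2.

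Pparg, the nuclear receptor that drives adipocyte differentiation, stood at 2.24, 2.32 and 2.23 CPM in Intermediate, 38.0, 18.1 and 27.6 CPM in Progenitor, 12.4, 6.76 and 5.33 CPM in SMC1 and 456, 329 and 315 CPM in SMC2 (nearest log2 difference -1.85, to SMC1). The fatty acid transporter Cd36 and the fatty acid binding protein Fabp4 were also lower than each population, at 29.7 and 54.9 CPM in Intermediate against 66.3 and 112 CPM in Progenitor and 248 and 1476 CPM in SMC2. Of 30 preadipocyte and adipocyte genes, 15 were lower and 7 higher than the mean of the others, with a median log2 difference of -0.87. That mean includes SMC2, where Pparg and Fabp4 were far higher than in Progenitor, and 3 of the 30 were lower than each population. The share higher, 23.3%, was near the 20.8% over all genes tested, while 50% were lower, against 15.9%. The 3 lower than each became 6 when SMC1 replicate 2 was left out. Zfp423, a zinc finger factor of preadipocytes, went the other way and was higher than each (36.9 CPM against 24.8 CPM in Progenitor), a call that was lost in 14 of 17 alternatives, among them median-of-ratios and upper-quartile scaling, DESeq2 and 10 of the 12 omissions of a library. Hacd1, an enzyme of fatty acid elongation, and Cyp4b1, a cytochrome of fatty acid and xenobiotic oxidation, were also among the 15 named lower genes, with 7.81 and 5.32 CPM in Intermediate against 33.6 and 22.5 CPM in Progenitor.

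Des, desmin, the muscle intermediate filament, stood at 11.4, 8.85 and 13.1 CPM in Intermediate, 46.2, 35.9 and 44.6 CPM in Progenitor, 67.4, 66.3 and 79.1 CPM in SMC1 and 322, 249.3 and 228 CPM in SMC2. All 26 smooth muscle contractile genes were lower than the mean of the others, which includes both smooth muscle populations, and Des was the single one lower than each, Progenitor included. That count was 2 with median-of-ratios or upper-quartile factors, with DESeq2, and without SMC1 replicate 1 or 3 or SMC2 replicate 1 or 3. The markers of interstitial progenitors were split: 11 of 22 were higher and 5 lower than the mean, 0 were higher than each, and Anxa3, Limch1 and Efhd1 were lower than each; Anxa3 lost its call without Intermediate 2 or 3 or SMC2 1 or 2. Efhd1, a calcium-binding mitochondrial protein, stood at 4.35, 2.64 and 1.85 CPM in Intermediate, against 20.4 CPM in the lowest other library. Dpp4 and Ly6c1, surface markers of such progenitors, stood at 34.4 and 156 CPM in Intermediate against 234 and 1223 CPM in Progenitor, and at 4.87 to 44.8 CPM in the mean of either smooth muscle population.

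The remaining named lower genes included Aoc3, a vascular amine oxidase, at 12.3, 8.73 and 7.73 CPM in Intermediate against 47.4 CPM in the lowest other library, and Emb, embigin, a chaperone of monocarboxylate transporters, at 2.67, 3.27 and 3.002 CPM against 13.6 CPM. Lgals3, galectin-3, stood at 14.0, 9.80 and 17.6 CPM in Intermediate against 39.7 to 88.1 CPM elsewhere. Sytl2, Fjx1, Glb1l2 and Trabd2b had mean levels of 2.06 to 6.33 CPM in Intermediate and nearest differences of -2.32 to -1.65 log2, all to Progenitor. Of 16 leukocyte markers 4 were lower than the mean and 1, Csf1r, was higher, a call lost in 8 of 17 alternatives (upper-quartile factors, and without Intermediate 1 or 3, Progenitor 1 or 3, SMC1 3, SMC2 1 or SMC2 3). Their summed level was 121 to 139 CPM in Intermediate against 139 to 686 CPM elsewhere. Tyrobp lost its call without Intermediate replicate 1 or 2 (adjusted p = 0.102 and 0.0762, edgeR quasi-likelihood test). Of 15 pericyte markers, 8 were lower and 5 higher than the mean, with Des, Vtn and Higd1b lower than each and the potassium channel Kcnj8 higher than each. Of 15 glial and perineurial markers, 6 were lower (40%) and 4 higher (26.7%, near the 20.8% over all genes tested). Cldn1 and Ntn4 (not without SMC2 replicate 3) were higher than each, and the glial cadherin Cdh19 was lower than each.

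The mitochondrial genome took 0.540% to 0.545% of counts in the 3 Intermediate libraries and 0.855% to 1.86% in the other 9. Of 16 tested genes of that genome, 15 were lower in Intermediate than the mean of the others, 0 were higher and 10 lay below all 9 other libraries, with a median log2 difference of -1.08. The respiratory chain subunits encoded in the nucleus were then gathered by gene name, after their values had been seen. The set took Nduf, Cox, Uqcr and Atp5 names, so it includes the ATP synthase and leaves out the Sdh genes and Cyc1. Of 76 tested, 72 were lower than the mean of the others, 0 were higher (also by DESeq2 and at an unadjusted p of 0.05), 43 lay below all 9 other libraries and 35 were lower than each population. Their median log2 difference was -0.54 to Progenitor, -0.70 to SMC1 and -1.21 to SMC2. Cox6c, a subunit of cytochrome c oxidase, stood at 100.5 CPM in Intermediate against 226 CPM in Progenitor, Ndufa4 at 106 CPM against 242 CPM, and Atp5md, of the ATP synthase, at 40.0 CPM against 104 CPM. The 4 that were not called were Cox6b2, Cox8b, Ndufa1 and Ndufb2. Leaving out a library changed the number lower than each: 35 became 19, 22 and 17 without Intermediate replicate 1, 2 or 3, and 17 and 19 without Progenitor replicate 1 or 2, with 17 to 40 over every alternative run, while 61 to 73 were lower than the mean. Reads of these and of ribosomal protein genes may be split with near-identical pseudogene copies, so single values are uncertain.

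Genes for cytosolic ribosomal proteins, which are also short and abundant, gave another order. Of 77, 50 were lower than the mean and 3 were lower than each, with median log2 differences of -1.08 to Progenitor, -0.35 to SMC1 and -0.13 to SMC2. Of 77 mitochondrial ribosomal protein genes, 44 were lower than the mean and 19 lower than each. Transcript length moved with these results. The median summed exon length was 1559 bases for the respiratory subunits, 3018 bases for protein-coding genes lower than each and 4877 bases for those higher than each, against 4426 bases for all 15010 protein-coding genes tested. Among the 3003 shortest coding genes, of 90 to 2485 bases, 8.03% lay below all 9 other libraries and 6.03% above, and among the 3002 longest 2.47% lay below and 9.23% above. The 1101 coding genes of at most 1559 bases had a median log2 difference of -0.25, smaller than the -0.79 of the respiratory subunits, and the part of length in the result was not tested.

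**Figure D5:**
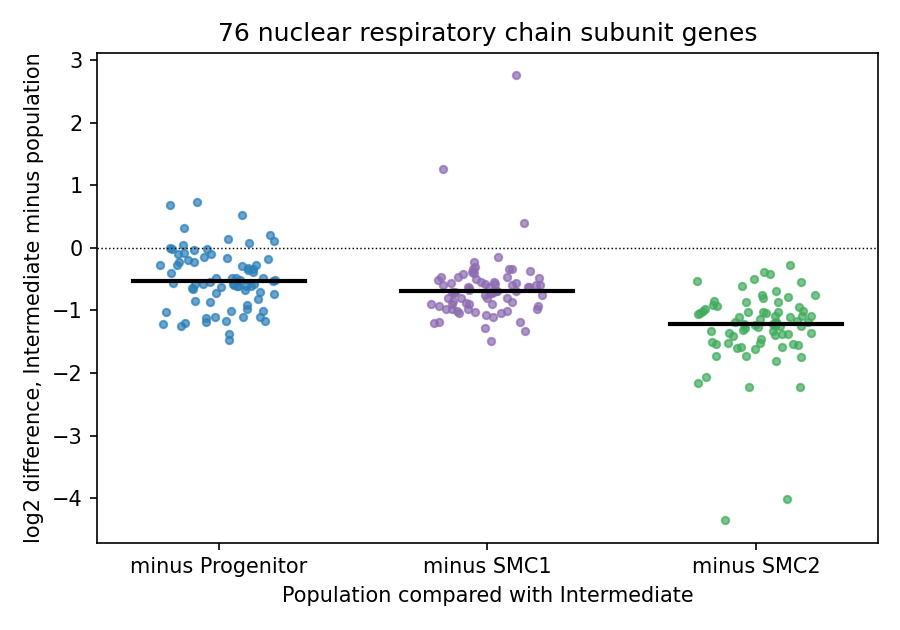
Log2 difference of Intermediate minus Progenitor, SMC1 and SMC2 (vertical axis) for 76 nuclear respiratory chain subunit genes, ATP synthase genes included. Each comparison has a point per gene, with 0 as a dotted line. Most points lie below 0 in all 3 comparisons, with medians of -0.54, -0.70 and -1.21.

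The promoters of the genes higher than each population were searched for short motifs on both strands, in the 250 bases before the start of 549 of the 750 genes that the RefSeq table holds. The GLI site GACCACCCA was in 0.182% of them (1 promoter), against 0.174% of tested promoters and 0.211% of all. Motif shares were 13.1% against 11.2% of tested promoters for the TEAD site GGAATG, 4.92% against 4.88% for the AP-1 site TGANTCA, 6.01% against 7.31% for the TATA box TATAAA and 59.4% against 58.5% for the E-box CANNTG. Each share was within 2 percentage points of that of the tested promoters. Of the promoters printed above, the Angptl7 window held 3 E-boxes, the Fmod and Frzb windows 1 each and the Hhip window none of these motifs. The 262 promoters of genes lower than each population had shares of 12.2%, 6.49%, 6.11% and 53.4% for the same 4 motifs.

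Genes named here on the higher side carry identifiers ENSMUSG00000041559 (Fmod), ENSMUSG00000028989 (Angptl7), ENSMUSG00000064325 (Hhip) and ENSMUSG00000027004 (Frzb). In GENCODE M21 (GRCm38) they span 134037254 to 134048277 on chromosome 1, 148495183 to 148500460 on chromosome 4, 79965851 to 80058006 on chromosome 8 and 80411970 to 80447625 on chromosome 2. The promoter window of Frzb, 80447397 to 80447646, therefore lies mostly inside this span, unlike the other windows. The kit does not mark strand, so reads cannot be told apart where exons of another gene overlap: this touched 1.93% of the exon bases of Hhip and 0% of those of Fmod, Angptl7 and Frzb. Among the other named genes the overlap was 16.4% for Angptl1, 16.1% for Sfrp2, 11.9% for Efhd1, 9.93% for Emb, 9.46% for Cxadr and at most 9.34% for the rest of those chosen by the naming rule.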

How the data were processed

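Poly(A) RNA of 12 sorted mouse libraries was measured, 3 each of Intermediate, Progenitor, SMC1 and SMC2. The authors deposited raw counts per gene, a normalized signal (each library's counts divided by 1 factor, to within 1.31e-09) and regularized log2 values; STAR 2.5.2a, DESeq2 1.26.0 and mm10 are listed in the submitters' processing notes. No source used here names the counting program. Symbols are those deposited, or from GENCODE M21 for 12078 rows without one and 26 that had become dates.

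The raw counts were fitted with edgeR 4.0.16 (limma 3.58.1, R 4.3.3): filterByExpr, TMM scaling, a mean per population over 12 libraries (8 residual degrees of freedom, biological coefficient of variation 0.206), and two-sided quasi-likelihood tests of Intermediate minus the mean of the other 3 populations and minus each, with Benjamini-Hochberg adjustment over all 19016 genes at 0.05. The code was tested on simulated data. Depth was 13258631 to 22647175 counts, and amplified fragments are not independent molecules. No 2 replicates agreed within sampling noise (chi-square per degree of freedom at least 9.31).

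Higher (or lower) than each means called in all 3 single comparisons with no overlap of libraries. From these the 15 genes furthest from their nearest population each way were named (higher genes with at least 16 CPM in Intermediate, lower genes with at least 8 CPM in the lowest other population, unnamed gene models passed over), with the 4 markers, identity genes and members of lists. Respiratory, ribosomal and further genes outside this rule were chosen after their values were seen. Some genes are not reported here. The members and lists were chosen with earlier results of these data known. Same-numbered libraries deviated together (correlation of Intermediate with the mean of the others 0.318, 0.160 and 0.327), so the numbers were taken to pair them. Alternatives were other scalings, no filter, DESeq2 1.42.0, the replicate block and each library left out.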

Additional observations from a re-analysis of the deposited data

How the results depend on the processing

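The numbers of genes higher and lower than the mean of the other 3 populations were 3952 and 3018, and over the scalings, the missing filter, DESeq2, the replicate block and each library left out they ranged from 3182 to 4109 and from 2161 to 3626. With the replicate block, which takes the numbers as pairs, they were 4109 and 3219. It gave 782 genes higher and 403 lower than each population, of which 740 and 375 were among the 750 and 380. The block changed no call against the mean of the other 3 populations for genes chosen by the naming rule. Among list members, Fcer1g lost its call lower than each and Slpi its call higher than each. Inha and Retn lost their calls lower than the mean. The genes lying above all 9 other libraries numbered 1325 (1130 to 1886 with a library left out, 1005 with upper-quartile factors) and those below 758 (844 to 1150 with a library left out, 1034 with upper-quartile factors). The authors' normalized counts gave 1155 and 829, and their log2 values 1156 and 822. The genes higher than each ranged from 539 to 724 and those lower from 222 to 453 with a library left out, 222 without Intermediate replicate 2 and 239 without replicate 3. With DESeq2 they were 694 and 478, with median-of-ratios factors 633 and 446, without the filter (33352 genes) 594 and 304. Of the genes higher or lower than each with upper-quartile factors, 528 and 370 were shared with those of the TMM fit, and higher genes were 49.7% of all calls against the mean in place of 56.7%. The cause of these moves was not tested.

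None of the genes chosen by the naming rule changed direction in these alternatives. Among their differences to the mean of the other 3 populations, calls were lost for Emcn, Tie1 and Tyrobp, each with a library left out (adjusted p of 0.0546 to 0.191 for Tie1 in edgeR's quasi-likelihood test). Over all list members, 186 of 212 calls higher and 97 of 121 calls lower than the mean held in all 17 alternatives, as did 51 of 69 calls higher than each and 12 of 14 lower than each; Zfp423, Col1a2 and Nkd2 lost their calls higher than each in most.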

Other observations

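Further genes higher in Intermediate than in each other population fall outside the lists above and were chosen after their values were seen. Vipr2, a receptor for vasoactive intestinal peptide, stood at 532, 432 and 426 CPM in Intermediate, 68.2, 82.7 and 100.2 CPM in Progenitor, 7.02, 8.25 and 9.02 CPM in SMC1 and 59.1, 34.7 and 29.5 CPM in SMC2. Dio2, the deiodinase that makes active thyroid hormone, stood at 116, 122.6 and 123.2 CPM in Intermediate against 13.5, 21 and 16.3 CPM in Progenitor and at most 2.70 CPM in the smooth muscle libraries. Vegfd, a growth factor for lymphatic vessels, stood at 265, 178 and 154 CPM in Intermediate and at most 35.9 CPM elsewhere. F3, tissue factor, which starts coagulation, stood at 3756, 2671 and 2520 CPM against 637, 776 and 698 CPM in Progenitor. No overlap between Intermediate and the other 9 libraries follows for all 4 genes from how they were chosen. Their nearest log2 differences were 2.47, 2.84, 2.57 and 2.08, each to Progenitor.

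On the lower side, also chosen after their values were seen, Calcrl and Ramp1, the 2 subunits of the receptor for calcitonin gene-related peptide, were both lower than in each other population. Calcrl stood at 18.6, 10.3 and 11.9 CPM in Intermediate, 46.5, 25.5 and 33.4 CPM in Progenitor, 65.2, 93.4 and 106 CPM in SMC1 and 185, 137 and 100.5 CPM in SMC2. Ramp1 stood at 9.38, 10.9 and 7.15 CPM in Intermediate, 20.1, 24.6 and 17.2 CPM in Progenitor and at least 159.8 CPM in the smooth muscle libraries. Ptger3, a prostaglandin E receptor, stood at 0.311, 0.628 and 0.639 CPM in Intermediate against 3.31 CPM in the lowest other library, and Adra1b, an alpha-adrenergic receptor, at 0.559, 0.502 and 0.894 CPM against 3.497 CPM. Tmsb4x, thymosin beta, an actin-binding peptide, stood at 797, 829.5 and 797 CPM in Intermediate against 1441 to 6972 CPM elsewhere. These 5 genes had nearest log2 differences of -1.37, -1.17, -3.31, -2.88 and -1.25.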
